A study of Homo sapiens with 4 samples.

Results

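Aminoacyl-tRNA synthetases join each amino acid to its transfer RNA, and 36 of their genes were followed in DU145 and PC-3 prostate cancer cells exposed to OICR-9429. All 36 were found by Ensembl identifier among the 27658 genes listed in the deposited tables. For 18 of them an older symbol exists, which lacks the final digit except for TARS3, formerly TARSL2. Of these, 20 encode cytosolic enzymes and 16 encode mitochondrial enzymes. GARS1 and KARS1, which supply both compartments from 1 gene each, were counted with the cytosolic enzymes.

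The study measured total RNA by sequencing in 4 libraries, 1 for each combination of line and treatment. DU145 cells received 120 µM OICR-9429 or its solvent DMSO, and PC-3 cells received 150 µM OICR-9429 or DMSO, in every case for 48 h. OICR-9429 occupies the site on WDR5, a scaffold of MLL-type histone methyltransferases, through which WDR5 contacts MLL. DU145 and PC-3 are established lines from metastases of prostate carcinoma. DU145 was grown in DMEM and PC-3 in RPMI1640, so dose and medium cannot be told apart from the line. With 1 library in each group, no difference within a line has a replicate check.

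Cytosolic synthetases charge the transfer RNAs used by ribosomes of the cytoplasm, while a separate set of nuclear genes encodes the enzymes imported into mitochondria, where the organelle's own ribosomes make subunits of the respiratory chain. Several cytosolic enzymes sit together in the multisynthetase complex, held by the scaffold proteins AIMP1, AIMP2 and EEF1E1. Uncharged transfer RNA activates the kinase GCN2, which phosphorylates eIF2 and favours translation of the transcription factor ATF4. ATF4, often paired with a C/EBP protein, acts on amino acid transporters, amino acid synthesis enzymes and many cytosolic synthetases through a composite site, the C/EBP-ATF response element.

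The core of that composite site was looked for in the promoters of the synthetases, because many cytosolic members are known ATF4 targets. RefSeq promoter windows on GRCh38.p14, running from 250 bases before to 50 bases after a gene's start, were at hand for 30 of the 36 genes (16 cytosolic and 14 mitochondrial). The letters TGATGNAA, on either strand, occurred in the windows of 7 of the 16 cytosolic genes (43.75%), in those of 1 of the 14 mitochondrial genes (7.14%) and in those of 1217 of 27305 genes with a window (4.46%). The 8 stretches follow, each 5′ to 3′ on the strand of its gene, with the match in capitals. A match of letters is a description and not a bound site.

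AARS1, chr16:70289666-70289743, minus strand: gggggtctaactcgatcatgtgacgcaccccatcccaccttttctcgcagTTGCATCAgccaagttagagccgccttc
CARS1, chr11:3057398-3057475, minus strand: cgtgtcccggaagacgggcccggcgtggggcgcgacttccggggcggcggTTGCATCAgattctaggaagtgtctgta
GARS1, chr7:30594795-30594872, plus strand: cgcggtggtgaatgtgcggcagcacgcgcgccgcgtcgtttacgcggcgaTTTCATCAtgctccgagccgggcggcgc
IARS1, chr9:92293683-92293760, minus strand: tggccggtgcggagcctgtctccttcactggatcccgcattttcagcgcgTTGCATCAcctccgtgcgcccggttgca
MARS1, chr12:57488014-57488091, plus strand: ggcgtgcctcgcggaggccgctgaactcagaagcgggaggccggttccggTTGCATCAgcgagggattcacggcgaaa
NARS1, chr18:57621807-57621872, minus strand: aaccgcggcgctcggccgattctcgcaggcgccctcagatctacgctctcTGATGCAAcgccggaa
TARS1, chr5:33440917-33440994, plus strand: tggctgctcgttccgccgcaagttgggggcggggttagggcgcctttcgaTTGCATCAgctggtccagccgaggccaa
YARS2, chr12:32756067-32756144, minus strand: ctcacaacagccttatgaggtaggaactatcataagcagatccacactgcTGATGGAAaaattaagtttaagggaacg

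In 6 of the 7 cytosolic genes, all but GARS1, the match was TTGCATCA or its reverse complement, a special case of TGATGNAA. That form was in the windows of 6 of 16 cytosolic genes (37.5%), 0 of 14 mitochondrial genes and 1.08% of all genes with a window. In CARS1, IARS1, MARS1, NARS1 and TARS1 the match began within 15 bases of the start, on either side. It began 33 bases before the start in GARS1, 187 bases before it in AARS1 and 197 bases before it in YARS2. The E box CACGTG was in 1 of 16 cytosolic and 3 of 14 mitochondrial genes, beside 8.78% of all genes.

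Levels are in CPM, read counts relative to the total of each library, as deposited. A change within a line is log2(CPM + 1) with OICR-9429 minus that with DMSO, a scale that understates the change of low genes. A ratio of CPM has an exact 95% interval in brackets, for counting error alone. The libraries held 27591000 to 29312000 sequenced fragments, to the nearest 1000, at which 3 fragments equal 0.102 to 0.109 CPM. KRT8, a keratin of glandular epithelium, was at 551 CPM with OICR-9429 and 562 CPM with DMSO in DU145, and at 219 CPM with OICR-9429 and 314 CPM with DMSO in PC-3. CTNNA1, which PC-3 is known to lack, was at no more than 3.45 CPM in PC-3 and at 499 CPM or more in DU145. Summed leukocyte markers stayed at or under 3.62 CPM in every library. Summed fibroblast markers, nearly all COL1A1, were at 3.57 CPM with OICR-9429 and 10.2 CPM with DMSO in DU145, and at 16.9 CPM with OICR-9429 and 68.5 CPM with DMSO in PC-3. Summed endothelial markers were at 2.29 CPM with OICR-9429 and 2.18 CPM with DMSO in DU145, and at 27.2 CPM with OICR-9429 and 18.2 CPM with DMSO in PC-3, where PECAM1 was the 1 listed. The part of these markers in the values below was not tested. In bulk RNA such as this, fewer cells of a kind and less RNA in each cell cannot be told apart.

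In PC-3, cytosolic and mitochondrial synthetases lay apart after OICR-9429. Of the 20 cytosolic genes, 14 stood higher with OICR-9429 than with DMSO and 6 lower, with a median change of 0.26, while of the 16 mitochondrial genes 1 stood higher and 15 lower, with a median of -0.39. Over all 14623 genes with at least 1 CPM in the higher PC-3 library the median was -0.01 and 50.5% stood lower. Added up, the cytosolic genes had 4626 CPM with OICR-9429 and 3632 CPM with DMSO, a ratio of 1.27. The mitochondrial genes had 505 CPM with OICR-9429 and 759 CPM with DMSO, a ratio of 0.666. The cytosolic sum was thus 9.15 times the mitochondrial sum with OICR-9429, against 4.79 times with DMSO. Within the cytosolic sums AARS1 alone made up 622 CPM with OICR-9429 and 188 CPM with DMSO. The matching ratios of the sums in DU145 were 9.59 with OICR-9429 and 7.75 with DMSO.

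In DU145 the mitochondrial side was lower as well, and the cytosolic side was near its DMSO level. Of the 20 cytosolic genes 12 stood higher with OICR-9429 and 8 lower, with a median change of 0.05 and sums of 5649 CPM with OICR-9429 and 5715 CPM with DMSO. Of the 16 mitochondrial genes 2 stood higher and 14 lower, with a median of -0.39 and sums of 589 CPM with OICR-9429 and 737 CPM with DMSO. The background here was itself lower: over 16120 genes with at least 1 CPM the median was -0.18, and 65.1% stood lower with OICR-9429. Among genes with a mean of 10 to 100 CPM, where most mitochondrial synthetases lie, the DU145 median was -0.12, and among genes of 100 to 1000 CPM, where most cytosolic ones lie, it was 0.08. Scaling by TMM or by the median of ratios moved all DU145 changes up by 0.14 or 0.18 and PC-3 changes by 0.02. Under these scalings 13 and 12 of the 16 mitochondrial genes stayed lower in DU145, and 15 of the 20 cytosolic genes stood higher under each.

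**Figure D1:**
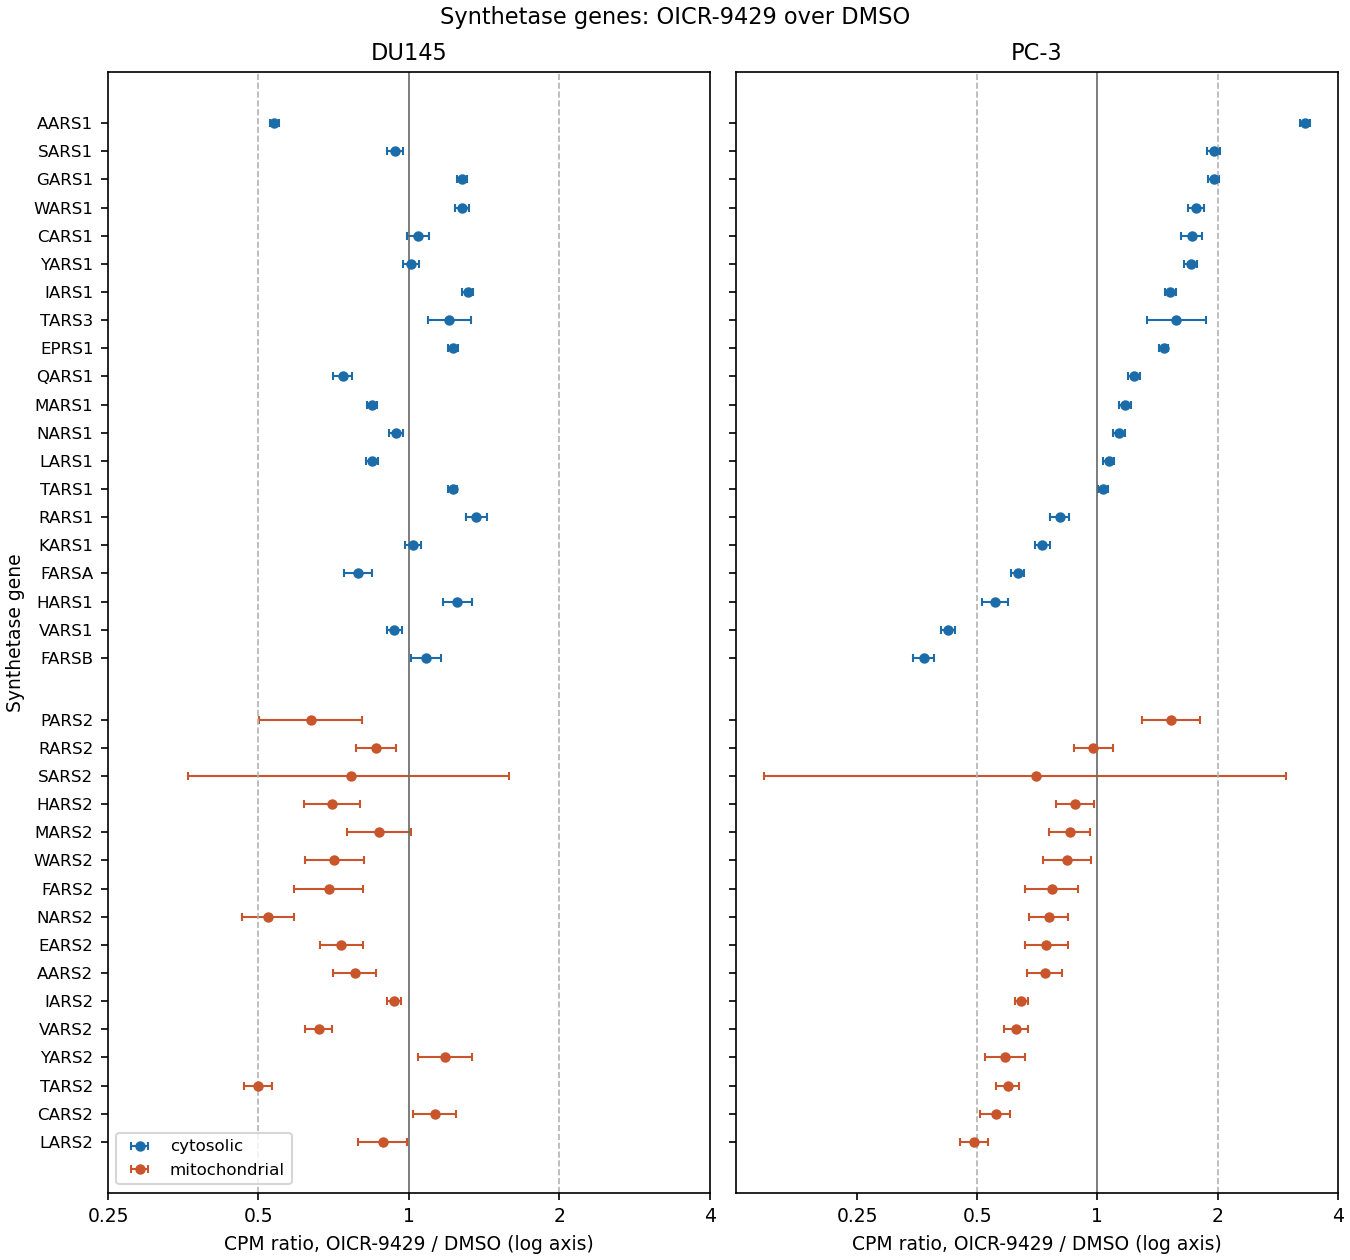
Ratio of CPM, OICR-9429 over DMSO, on a log axis for the 36 synthetase genes in DU145 (left) and PC-3 (right), ordered within each compartment by the PC-3 change. Points are 1 library over 1 library, bars are exact 95% counting intervals, and dashed lines mark 2-fold. In PC-3, 15 of the 16 mitochondrial genes sit left of 1, while the 20 cytosolic genes spread from FARSB at 0.367 to AARS1 at 3.31.

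Few members reached a 2-fold change on the log2(CPM + 1) scale. In PC-3, AARS1 was the 1 cytosolic gene at least 2-fold higher with OICR-9429, and FARSB and VARS1 were the 2 that were at least 2-fold lower. LARS2 was the 1 mitochondrial gene at least 2-fold lower. Of all PC-3 genes with at least 1 CPM, 7.15% were at least 2-fold higher and 8.68% at least 2-fold lower, so these counts are near the background. At 1.5-fold, 8 of 20 cytosolic genes were higher and 4 lower, and 0 of 16 mitochondrial genes were higher and 6 lower, beside 17.9% higher and 19.7% lower of all genes. In DU145 no member reached 2-fold in either direction on this scale (the CPM ratio of TARS2 was 0.499), where 0.999% of genes were at least 2-fold higher and 8.01% lower. At 1.5-fold, 1 cytosolic gene (AARS1) and 3 mitochondrial genes (TARS2, NARS2 and VARS2) were lower in DU145 and 0 members were higher, beside 22.3% lower and 4.37% higher of all genes.

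Among the cytosolic enzymes, AARS1, which charges alanine, had the largest change in PC-3. It was at 622 CPM with OICR-9429 and 188 CPM with DMSO in PC-3, a ratio of 3.31 (3.21 to 3.42), and at 508 CPM with OICR-9429 and 943 CPM with DMSO in DU145, a ratio of 0.538 (0.528 to 0.549). The 2 lines thus lay on opposite sides of their DMSO libraries, and DU145 in DMSO had the highest AARS1 level of the 4. Its mitochondrial partner AARS2 was lower in both lines, at 25.2 CPM with OICR-9429 and 32.4 CPM with DMSO in DU145, and at 23.9 CPM with OICR-9429 and 32.3 CPM with DMSO in PC-3.

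SARS1, the cytosolic seryl-tRNA synthetase, was at 294 CPM with OICR-9429 and 150 CPM with DMSO in PC-3, a ratio of 1.956 (1.89 to 2.03), and at 196 CPM with OICR-9429 and 209 CPM with DMSO in DU145. GARS1, the glycine enzyme of both compartments, was at 394 CPM with OICR-9429 and 202 CPM with DMSO in PC-3, and at 571 CPM with OICR-9429 and 447 CPM with DMSO in DU145. GARS1 was thus higher with the compound in both lines, by ratios of 1.95 (1.89 to 2.02) in PC-3 and 1.28 (1.25 to 1.31) in DU145. KARS1, the lysine enzyme that also serves both compartments, was lower in PC-3, with 123 CPM with OICR-9429 and 169 CPM with DMSO in PC-3, and 200 CPM with OICR-9429 and 196 CPM with DMSO in DU145. CARS1, for cysteine, was at 100.5 CPM with OICR-9429 and 58.3 CPM with DMSO in PC-3, and at 106 CPM with OICR-9429 and 102 CPM with DMSO in DU145.

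WARS1, the tryptophan enzyme known as a target of interferon gamma, was at 168 CPM with OICR-9429 and 94.9 CPM with DMSO in PC-3, and at 290 CPM with OICR-9429 and 227 CPM with DMSO in DU145. The ratios were 1.77 (1.69 to 1.85) in PC-3 and 1.28 (1.23 to 1.32) in DU145. Other genes overlap 10.6% of WARS1 exonic bases in GENCODE 29.

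On the lower side in PC-3 stood both subunits of the cytosolic phenylalanine enzyme. FARSB, the beta subunit, was at 49.1 CPM with OICR-9429 and 134 CPM with DMSO in PC-3, a ratio of 0.367 (0.345 to 0.390), and at 62.3 CPM with OICR-9429 and 57.6 CPM with DMSO in DU145. FARSA, the alpha subunit, was at 154 CPM with OICR-9429 and 243 CPM with DMSO in PC-3, and at 61.6 CPM with OICR-9429 and 77.7 CPM with DMSO in DU145. The subunits pair in equal number in the enzyme, but only RNA was measured here. In CPM per kilobase of exon FARSA was at 63.2 and FARSB at 14.6 with OICR-9429 in PC-3, against 99.9 and 39.7 with DMSO. In DU145 they were at 25.3 and 18.5 with OICR-9429, against 31.9 and 17.1 with DMSO. The length counts every annotated exon, so the levels of different genes compare only roughly. VARS1, for valine, was at 114 CPM with OICR-9429 and 270 CPM with DMSO in PC-3, a ratio of 0.423 (0.405 to 0.440), and at 234 CPM with OICR-9429 and 251 CPM with DMSO in DU145.

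HARS1, for histidine, was at 38.5 CPM with OICR-9429 and 69.4 CPM with DMSO in PC-3, and at 74.5 CPM with OICR-9429 and 59.5 CPM with DMSO in DU145. HARS1 and the mitochondrial HARS2 are transcribed in opposite directions from starts 85 bases apart on chromosome 5. HARS2 was at 22.2 CPM with OICR-9429 and 25.2 CPM with DMSO in PC-3, and at 14.1 CPM with OICR-9429 and 20.1 CPM with DMSO in DU145. In DU145 these neighbours therefore lay on opposite sides of their DMSO values, with HARS1 higher and HARS2 lower.

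**Figure D2:**
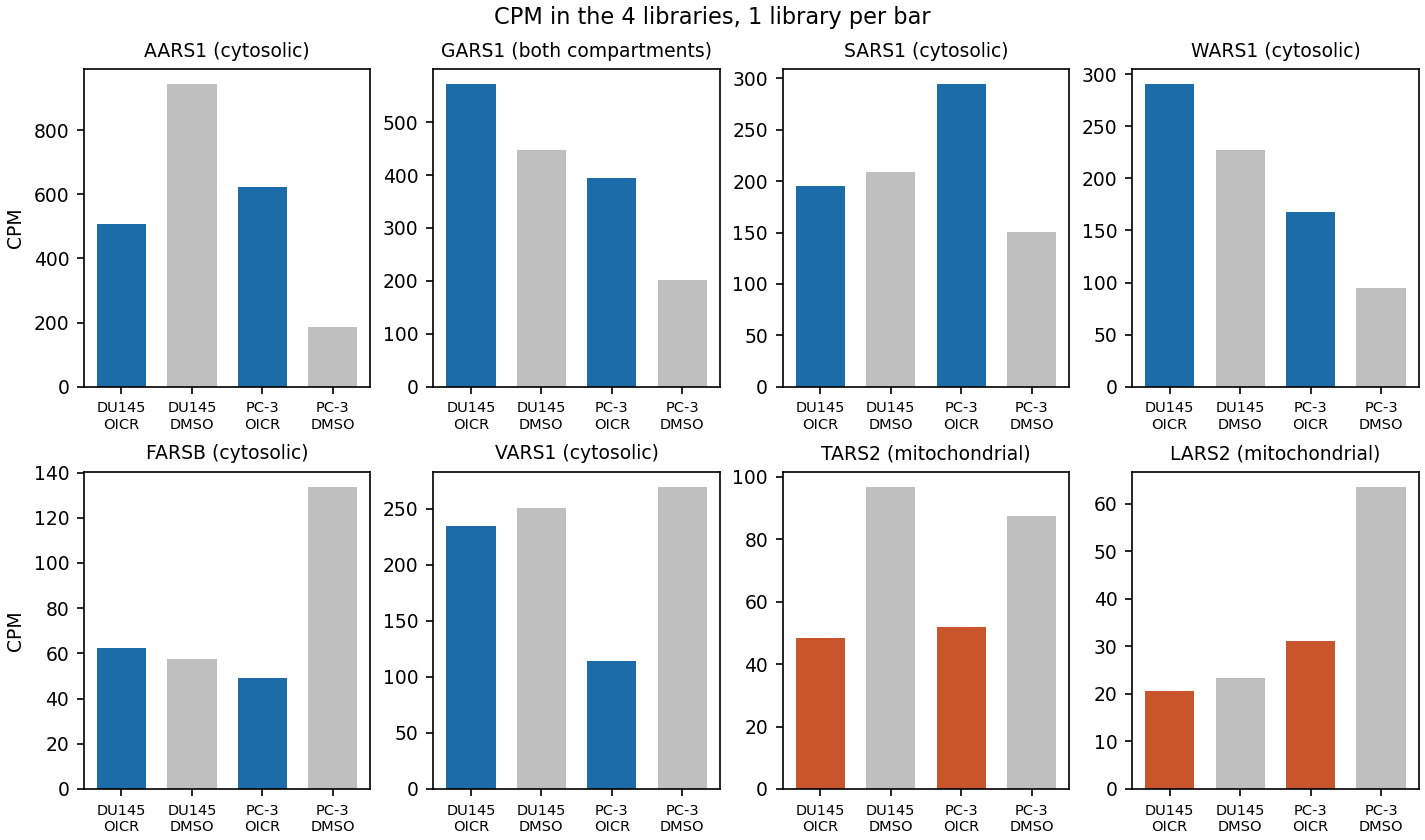
CPM of 8 synthetase genes in the 4 libraries, 1 library for each bar, with OICR-9429 in colour (blue cytosolic, orange mitochondrial) and DMSO in grey beside it. AARS1 stands at 508 CPM with OICR-9429 against 943 CPM with DMSO in DU145 and at 622 CPM with OICR-9429 against 188 CPM with DMSO in PC-3, and TARS2 is lower with OICR-9429 in both lines.

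The 7 enzymes of the multisynthetase complex, EPRS1, IARS1, KARS1, LARS1, MARS1, QARS1 and RARS1, were set beside the 13 cytosolic genes outside it. In PC-3 the complex enzymes ran from -0.45 to 0.60 with a median of 0.23, and the others from -1.43 to 1.72 with a median of 0.60. In DU145 the complex enzymes ran from -0.44 to 0.44 with a median of 0.03, and the others from -0.89 to 0.35 with a median of 0.06. EPRS1, which charges both glutamate and proline, was at 571 CPM with OICR-9429 and 466 CPM with DMSO in DU145, and at 511 CPM with OICR-9429 and 349 CPM with DMSO in PC-3. QARS1, for glutamine, was at 129 CPM with OICR-9429 and 175 CPM with DMSO in DU145, and at 282 CPM with OICR-9429 and 228 CPM with DMSO in PC-3. RARS1, for arginine, went the other way round, at 138 CPM with OICR-9429 and 101 CPM with DMSO in DU145, and at 85.9 CPM with OICR-9429 and 107 CPM with DMSO in PC-3.

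Of the remaining cytosolic genes, IARS1 (isoleucine) was higher with OICR-9429 in both lines, by 0.39 in DU145 and 0.60 in PC-3 on the log2 scale. YARS1 (tyrosine) differed by 0.02 in DU145 and 0.77 in PC-3. LARS1, the leucine enzyme and a leucine sensor for mTORC1, was at 341 CPM with OICR-9429 and 404 CPM with DMSO in DU145, and at 244 CPM with OICR-9429 and 229 CPM with DMSO in PC-3. Together with MARS1 (methionine) and NARS1 (asparagine) its changes ran between -0.24 and -0.09 in DU145 and between 0.09 and 0.23 in PC-3.

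Threonine has 3 genes. TARS2, the mitochondrial enzyme, was at 48.4 CPM with OICR-9429 and 96.9 CPM with DMSO in DU145, a ratio of 0.499 (0.468 to 0.533), and at 52.1 CPM with OICR-9429 and 87.4 CPM with DMSO in PC-3, a ratio of 0.596 (0.558 to 0.635). Both OICR-9429 libraries were below both DMSO libraries. TARS1, the main cytosolic enzyme, was at 689 CPM with OICR-9429 and 562 CPM with DMSO in DU145, and at 323 CPM with OICR-9429 and 313 CPM with DMSO in PC-3. TARS3, a second cytosolic threonine enzyme, was far lower, at 30.7 CPM with OICR-9429 and 25.4 CPM with DMSO in DU145, and at 12.4 CPM with OICR-9429 and 7.85 CPM with DMSO in PC-3. TARS1 and TARS3 have similar coding sequences, so the split of reads between them is uncertain.

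Other mitochondrial enzymes shared the direction of TARS2. VARS2, for valine, was at 59.9 CPM with OICR-9429 and 90.9 CPM with DMSO in DU145, and at 48.9 CPM with OICR-9429 and 78.2 CPM with DMSO in PC-3. In GENCODE 29, 22.0% of its exonic bases overlap another gene, so reads could be shared. NARS2, for asparagine, was at 15.0 CPM with OICR-9429 and 28.7 CPM with DMSO in DU145, and at 19.4 CPM with OICR-9429 and 25.6 CPM with DMSO in PC-3. Both VARS2 and NARS2 had their 2 OICR-9429 libraries below their 2 DMSO libraries. Among mitochondrial genes AARS2, FARS2, IARS2 and WARS2 did so as well in CPM as deposited. The share of all genes that do so is not given here.

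LARS2, for leucine, was at 31.2 CPM with OICR-9429 and 63.6 CPM with DMSO in PC-3, a ratio of 0.490 (0.452 to 0.532), and at 20.6 CPM with OICR-9429 and 23.3 CPM with DMSO in DU145. FARS2, which acts as a single chain where the cytosolic phenylalanine enzyme needs both FARSA and FARSB, was at 9.67 CPM with OICR-9429 and 13.99 CPM with DMSO in DU145, and at 10.3 CPM with OICR-9429 and 13.4 CPM with DMSO in PC-3. WARS2, for tryptophan, was at 13.3 CPM with OICR-9429 and 18.8 CPM with DMSO in DU145, and at 13.1 CPM with OICR-9429 and 15.7 CPM with DMSO in PC-3. All 3 were lower with the compound in both lines, except that LARS2 in DU145 stood higher under median-of-ratios scaling.

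The exceptions on the mitochondrial side were PARS2, CARS2 and YARS2, which lay on opposite sides of DMSO in the 2 lines. PARS2, for proline, was at 4.22 CPM with OICR-9429 and 6.63 CPM with DMSO in DU145, and at 12.6 CPM with OICR-9429 and 8.26 CPM with DMSO in PC-3. CARS2, for cysteine, was at 31.4 CPM with OICR-9429 and 27.8 CPM with DMSO in DU145, and at 28.9 CPM with OICR-9429 and 51.9 CPM with DMSO in PC-3. YARS2, the mitochondrial gene with the TGATGNAA match, differed by 0.23 in DU145 and -0.73 in PC-3 on the log2 scale. SARS2 was below 1 CPM in all 4 libraries, at 0.53 CPM with OICR-9429 and 0.69 CPM with DMSO in DU145, and at 0.14 CPM with OICR-9429 and 0.20 CPM with DMSO in PC-3. In GENCODE 29, 57.0% of its exonic bases overlap other genes, and the part of that overlap in its low value was not tested. The 5 others, EARS2, IARS2, MARS2, RARS2 and AARS2, were lower in both lines, by changes of -0.43 to -0.10 in DU145 and -0.63 to -0.03 in PC-3, except that IARS2 in DU145 stood higher under both other scalings. For RARS2 in PC-3 and MARS2 in DU145 the counting interval of the ratio held 1. IARS2 (isoleucine) was the most abundant mitochondrial synthetase per kilobase in every library, between 40.7 and 66.5 CPM per kilobase.

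The 2 compartments can be set against each other within a library, where scaling cancels. A difference by expression level does not cancel, and most cytosolic genes are the more abundant. Over all genes of 100 to 1000 CPM and of 10 to 100 CPM the median changes were 0.08 and -0.12 in DU145. They were -0.03 and -0.01 in PC-3. Pairs of other genes were not formed, so the pair counts have no background. For the 16 mitochondrial enzymes, 18 pairs with a cytosolic gene for the same amino acid could be formed, since phenylalanine and threonine have 2 cytosolic genes each, and EPRS1 pairs with both EARS2 and PARS2. The ratio of cytosolic to mitochondrial CPM was higher with OICR-9429 than with DMSO in 13 pairs and lower in 5 in DU145, and higher in 12 and lower in 6 in PC-3. The median log2 change of the ratio was 0.58 in DU145 (range -0.53 to 1.30) and 0.89 in PC-3 (range -1.07 to 2.17). In 7 pairs the ratio was higher in both lines, and in 0 pairs was it lower in both. Beyond counting error the ratio was higher in 11 pairs and lower in 2 in DU145, and higher in 11 and lower in 5 in PC-3, and 6 pairs were higher in both lines. The serine pair, which rests on the few fragments of SARS2, is among the 13, 12 and 7 pairs and not beyond counting error in either line.

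The AARS1 to AARS2 ratio was 26.1 with OICR-9429 and 5.80 with DMSO in PC-3, and 20.1 with OICR-9429 and 29.1 with DMSO in DU145. For TARS1 over TARS2 it was 14.2 with OICR-9429 and 5.81 with DMSO in DU145, and 6.21 with OICR-9429 and 3.58 with DMSO in PC-3. For WARS1 over WARS2 it was 21.8 with OICR-9429 and 12.1 with DMSO in DU145, and 12.8 with OICR-9429 and 6.06 with DMSO in PC-3. The threonine and tryptophan pairs thus shifted to the cytosolic side in both lines, and the alanine pair did so in PC-3. Phenylalanine, histidine and valine went the other way in PC-3: FARSB over FARS2 was 4.76 with OICR-9429 and 9.95 with DMSO, HARS1 over HARS2 was 1.73 with OICR-9429 and 2.75 with DMSO, and VARS1 over VARS2 was 2.33 with OICR-9429 and 3.45 with DMSO.

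**Figure D3:**
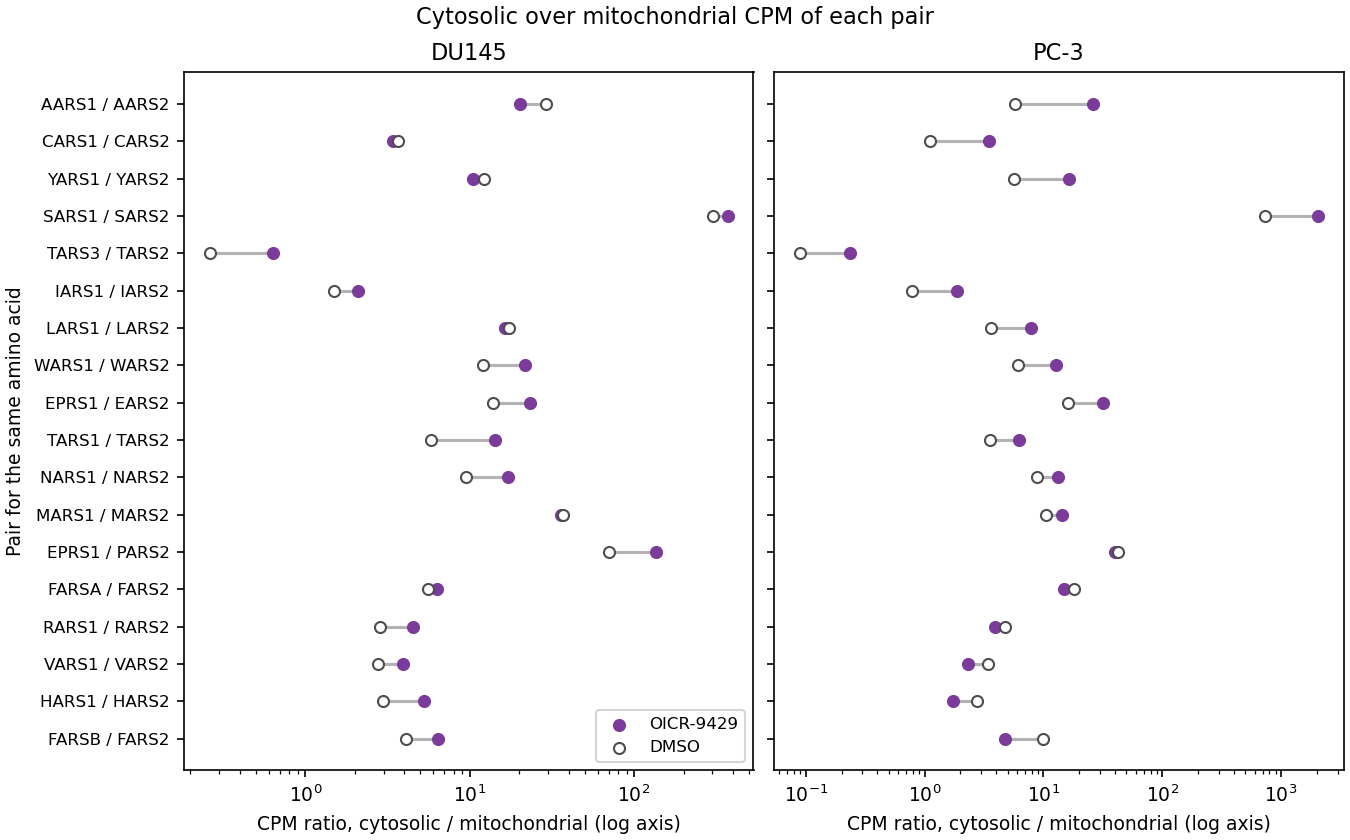
Ratio of cytosolic to mitochondrial CPM within a library for 18 pairs of synthetases, on a log axis, with OICR-9429 as filled and DMSO as open circles, DU145 left and PC-3 right, ordered by the change in PC-3. The filled circle lies right of the open one in 13 pairs in DU145 and 12 in PC-3, with the widest gap for AARS1 over AARS2 in PC-3.

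Directions were then compared across the 2 lines. Of 16 mitochondrial genes 13 were lower in both lines, 0 were higher in both and 3 were opposite, and of 20 cytosolic genes 2 were lower in both, 8 higher in both and 10 opposite. Over the 13566 genes with at least 1 CPM in the higher library of each line, 33.0% were lower in both, 20.5% higher in both and 46.5% opposite. Among the 15 mitochondrial genes that meet this minimum, which leaves out SARS2 with 4 to 19 fragments in a library, 12 were lower in both. Under TMM and median-of-ratios scaling 12 and 11 mitochondrial genes were lower in both, and 10 cytosolic genes were higher in both under each. Across genes, which share their libraries and are not replicates, Pearson's r between the lines was -0.18 for the 20 cytosolic and -0.22 for the 16 mitochondrial genes, and Spearman's rho was 0.02 and -0.21. The only test the design allows treats the lines as replicates. limma with line and treatment as terms called 18 of 14976 genes higher (0.12%) and 173 lower (1.16%) with OICR-9429 at an adjusted p of 0.05. Of the 35 synthetase genes that entered it, all but SARS2, 0 were called. At an unadjusted p under 0.05 limma counted 1 of these 35 genes, TARS2, which was lower in both lines. A share of 0.05 of genes would pass that limit with no effect. The TARS2 estimate was -0.86 ± 0.30 (SE) with a limma adjusted p of 0.298. edgeR's quasi-likelihood test on the recovered fragments called 0 and also counted TARS2 alone at an unadjusted p under 0.05, and DESeq2 called 0 and counted 0. The fit has 1 residual degree of freedom, so its errors rest mostly on the variance trend over all genes. A difference in response between the lines has no test here, since its term would leave no residual degree of freedom.

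The cytosolic genes with a TGATGNAA match, whose sequences stand above, were all higher with OICR-9429 in PC-3. Their 7 changes ran from 0.05 in TARS1 to 1.72 in AARS1 with a median of 0.60, and their summed CPM was 2281 with OICR-9429 and 1423 with DMSO. The 9 cytosolic genes with a window and no match had 4 higher and 5 lower, from -1.43 in FARSB to 0.96 in SARS1, with a median of -0.31 and sums of 1705 CPM with OICR-9429 and 1545 CPM with DMSO. The 4 cytosolic genes with no window had a median of 0.34. YARS2, the 1 mitochondrial gene with a match, stood lower in PC-3, by -0.73. The PC-3 ratio of TARS1 was only 1.03 (1.005 to 1.065). In DU145 the groups did not part in this way, with medians of 0.06 over the 7 genes with a match and 0.11 over the 9 without.

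**Figure D4:**
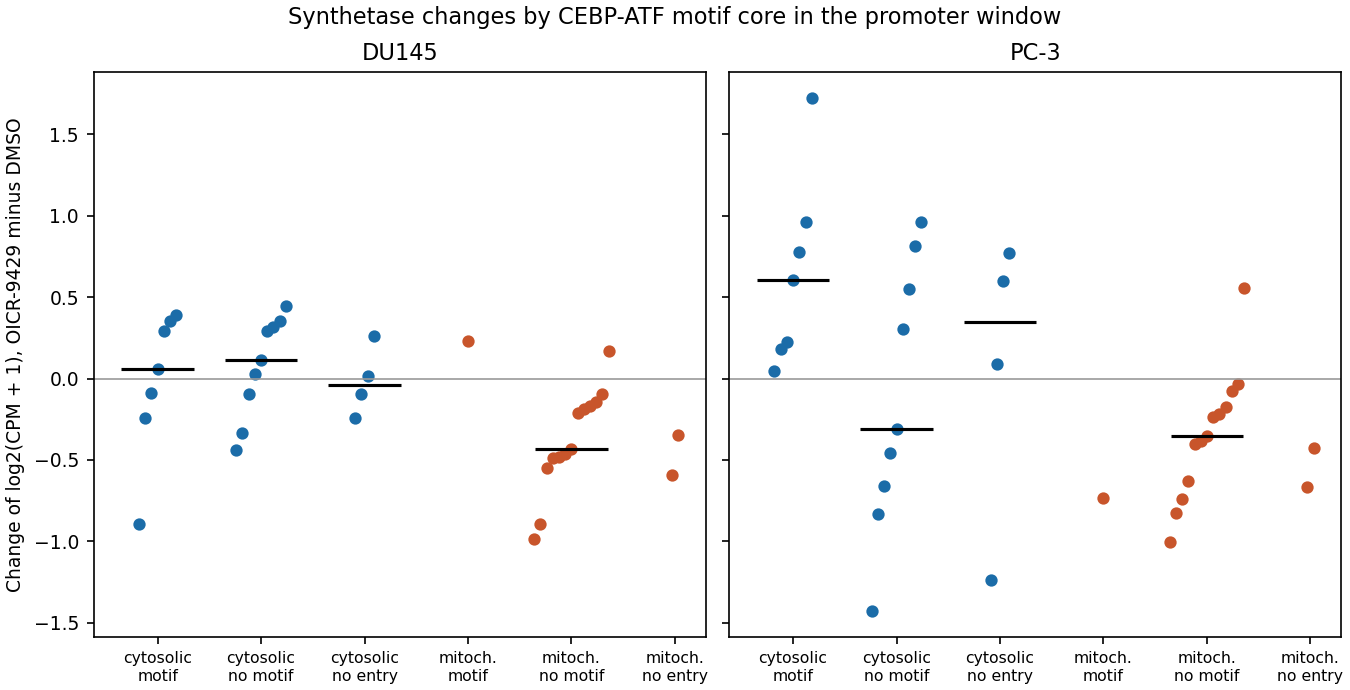
Change of log2(CPM + 1), OICR-9429 minus DMSO, for the synthetase genes grouped by compartment and by a TGATGNAA match (the CEBP-ATF motif core) in the promoter window, DU145 left and PC-3 right. Points are genes and bars are medians of groups with 4 or more genes. In PC-3 all 7 cytosolic genes with a match lie above 0, between 0.05 and 1.72.

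Genes of the ATF4 response were set beside the synthetases. This list and those below were chosen with earlier results of these data known, so their counts describe and do not test. Beside them, 49.5% of PC-3 genes with at least 1 CPM stood higher with OICR-9429 and 7.15% were at least 2-fold higher. In DU145 0.999% were at least 2-fold higher. Of 26 listed ATF4 and CHOP stress genes, 25 stood higher and 20 were at least 2-fold higher with OICR-9429 in PC-3, with a median change of 1.54, against 0 at 2-fold and a median of -0.06 in DU145 (0.09 with TMM and 0.12 with median-of-ratios scaling). ATF4 itself was at 555 CPM with OICR-9429 and 219 CPM with DMSO in PC-3, and at 512 CPM with OICR-9429 and 475 CPM with DMSO in DU145. DDIT3, which encodes CHOP, was at 73.2 CPM with OICR-9429 and 5.90 CPM with DMSO in PC-3, and at 17.1 CPM with OICR-9429 and 19.1 CPM with DMSO in DU145. DDIT3 and MARS1 overlap on opposite strands in GENCODE 29, over part of the 39.6% of DDIT3 and 12.4% of MARS1 exonic bases that other genes share, and reads there cannot be told apart without strand. TRIB3, a pseudokinase, was at 967 CPM with OICR-9429 and 109 CPM with DMSO in PC-3, and at 245 CPM with OICR-9429 and 254 CPM with DMSO in DU145.

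ASNS, which makes asparagine, was at 324 CPM with OICR-9429 and 325 CPM with DMSO in DU145, and at only 6.48 CPM with OICR-9429 and 1.09 CPM with DMSO in PC-3. SLC7A11, the cystine transporter, was at 271 CPM with OICR-9429 and 166 CPM with DMSO in DU145, and at 190 CPM with OICR-9429 and 33.3 CPM with DMSO in PC-3. GDF15, a secreted stress factor, was at 563 CPM with OICR-9429 and 51.3 CPM with DMSO in PC-3 and at 3.34 CPM with OICR-9429 and 3.26 CPM with DMSO in DU145. Across lines limma called 0 of the 26 genes, with 11 at an unadjusted p under 0.05, and edgeR called 0, with 9. Several of the 11 stood at or below DMSO in DU145 and far higher in PC-3, such as DDIT3 by -0.15 and 3.43 and TRIB3 by -0.05 and 3.14. Such a p averages unlike changes of the 2 lines. The share of all tested genes under the unadjusted limit is not given here, for this list or those below. The cytosolic synthetases had a PC-3 median of 0.26 beside the 1.54 of this list.

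Of the 9 eIF2 kinases and amino acid sensing genes, 3 were at least 2-fold higher with OICR-9429 in PC-3 and 0 in DU145. The shares of all genes with at least 1 CPM were 7.15% in PC-3 and 0.999% in DU145. SESN2, a leucine sensor and ATF4 target, was at 115 CPM with OICR-9429 and 20.9 CPM with DMSO in PC-3, and at 77.1 CPM with OICR-9429 and 57.4 CPM with DMSO in DU145. EIF2AK3, the eIF2 kinase of the endoplasmic reticulum, was at 24.8 CPM with OICR-9429 and 9.86 CPM with DMSO in PC-3, and at 26.3 CPM with OICR-9429 and 15.1 CPM with DMSO in DU145. EIF2AK2, the eIF2 kinase that senses double-stranded RNA, was at 383 CPM with OICR-9429 and 152 CPM with DMSO in PC-3, and at 214 CPM with OICR-9429 and 198 CPM with DMSO in DU145. EIF2S1, the phosphorylated subunit of eIF2, was lower in PC-3, at 231 CPM with OICR-9429 and 429 CPM with DMSO. limma and edgeR each called 0 of this list, with 2 genes at an unadjusted p under 0.05 in each.

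All 18 interferon response genes stood higher with OICR-9429 in PC-3, 16 of them at least 2-fold, with a median change of 2.36, and 3 stood higher in DU145, with a median of -0.27 (-0.16 with TMM and -0.14 with median-of-ratios scaling). This list too was chosen with earlier results known, and 7.15% of all PC-3 genes with at least 1 CPM were at least 2-fold higher. WARS1, as given above, stood higher with OICR-9429 in both lines. RSAD2, OAS2, MX1 and IFIT1, antiviral effectors, were at 345 to 564 CPM with OICR-9429 in PC-3 except RSAD2 at 99.8 CPM, against 1.09 to 26.9 CPM with DMSO. limma called 0 of the 17 interferon genes tested, with 7 at an unadjusted p under 0.05, and edgeR called 0, with 3.

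The scaffold partners stood lower in PC-3. The scaffold genes AIMP1, AIMP2 and EEF1E1 and the editing factor AARSD1 had medians of -0.54 in PC-3, where all 4 were below DMSO under every scaling, and -0.21 in DU145, where AIMP1 and AIMP2 turned under both other scalings. None of them passed 2-fold on the log2(CPM + 1) scale. Over all genes with at least 1 CPM, 50.5% stood lower in PC-3 and 65.1% in DU145. AIMP1 was at 45.9 CPM with OICR-9429 and 48.8 CPM with DMSO in DU145, and at 29.1 CPM with OICR-9429 and 43.7 CPM with DMSO in PC-3. EEF1E1 was at 4.39 CPM with OICR-9429 and 5.80 CPM with DMSO in DU145, and at 2.48 CPM with OICR-9429 and 4.84 CPM with DMSO in PC-3. AIMP2 differed by -0.01 in DU145 and -0.12 in PC-3, and AARSD1 was near or under 1 CPM in every library, where the added 1 CPM hides a CPM ratio of 0.301 (0.125 to 0.653) in DU145 and 0.264 (0.0773 to 0.724) in PC-3. Of 9 genes for supply and delivery of transfer RNA, XPOT, the exporter of transfer RNA from the nucleus, was the 1 past 2-fold, at 565 CPM with OICR-9429 and 238 CPM with DMSO in PC-3, and at 640 CPM with OICR-9429 and 472 CPM with DMSO in DU145. The share of all PC-3 genes at least 2-fold higher was 7.15%. EEF1A1, which delivers charged transfer RNA to the ribosome and has many processed copies that could share reads, was at 8309 CPM with OICR-9429 and 4532 CPM with DMSO in PC-3, and at 6022 CPM with OICR-9429 and 5996 CPM with DMSO in DU145. Its isoform EEF1A2 was lower in both lines, by changes of -0.68 in DU145 and -0.86 in PC-3, and the deacylase DTD2 by -0.24 in DU145 and -0.93 in PC-3.

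On the mitochondrial side most translation factors lay below DMSO. Of 9 listed genes of mitochondrial translation, 8 were lower in DU145 (7 under the other scalings) and 7 in PC-3 (6 under TMM), with medians of -0.30 in DU145 and -0.35 in PC-3, and TSFM and GFM1 were at least 2-fold lower in PC-3. GFM1, an elongation factor, was at 66.9 CPM with OICR-9429 and 82.2 CPM with DMSO in DU145, and at 21.3 CPM with OICR-9429 and 58.3 CPM with DMSO in PC-3. TSFM, which recharges the elongation factor TUFM, was at 13.4 CPM with OICR-9429 and 16.6 CPM with DMSO in DU145, and at 6.37 CPM with OICR-9429 and 15.2 CPM with DMSO in PC-3. GFM2, which acts in ribosome recycling, and TUFM were lower in both lines, by changes of -0.60 and -0.41 in DU145 and -0.52 and -0.35 in PC-3. The 6 genes that modify charged transfer RNA had medians of -0.19 in DU145 and -0.29 in PC-3 with 0 past 2-fold. Among them SEPSECS, for selenocysteine, differed by -0.79 in DU145 and -0.22 in PC-3, MTFMT, which formylates the mitochondrial initiator, by -0.24 in DU145 and -0.51 in PC-3, and GATB and QRSL1, which turn glutamate into glutamine on mitochondrial transfer RNA, by -0.28 and -0.13 in DU145 and -0.44 and -0.36 in PC-3.

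The 8 MYC and growth targets had medians of -0.72 in PC-3 and -0.16 in DU145 (-0.02 with TMM and 0.02 with median-of-ratios scaling), with NCL, NOP56 and NOLC1 at least 2-fold lower in PC-3. The share of all PC-3 genes at least 2-fold lower was 8.68%. NOP56, of box C/D ribonucleoproteins, was at 110.3 CPM with OICR-9429 and 254 CPM with DMSO in PC-3, and at 89.0 CPM with OICR-9429 and 112 CPM with DMSO in DU145. NOLC1 differed by -0.19 in DU145 and -1.38 in PC-3, the pyrimidine enzyme CAD by -0.38 in DU145 and -0.94 in PC-3, and the polyamine enzyme ODC1 by 0.86 in DU145 and 0.04 in PC-3. In the lists of scaffold genes, modifying enzymes, supply and delivery, mitochondrial translation and MYC targets, limma and edgeR each called 0. At an unadjusted p under 0.05 limma counted 0, 0, 1, 1 and 2 genes in that order, and edgeR 0 in each. Without the share of all tested genes under that limit, these counts cannot be placed against the background.

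**Figure D5:**
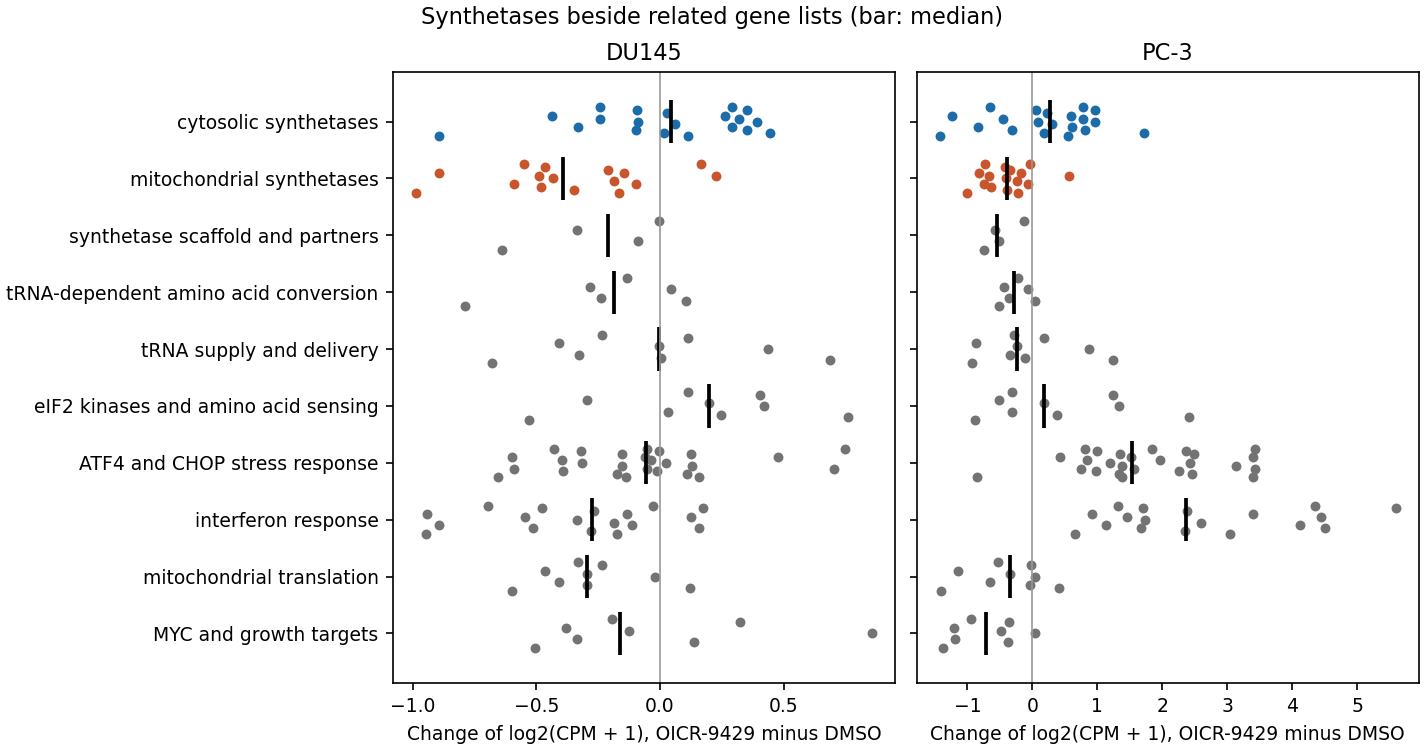
Change of log2(CPM + 1), OICR-9429 minus DMSO, for cytosolic (blue) and mitochondrial (orange) synthetases and for 8 related gene lists (grey), DU145 left and PC-3 right on axes of different range. Points are genes and bars are medians. The ATF4 and interferon lists reach PC-3 medians of 1.54 and 2.36, against 0.26 and -0.39 for the cytosolic and mitochondrial synthetases.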

How the data were processed

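The authors deposited gene identifiers with CPM for each library, per the file headers. The tools listed by the submitters' processing notes are HISAT2 2.1.0, HTSeq 0.6.1 and bcl2fastq 2.19.1, with the build hg19. Annotation and strand setting: not given in the sources used here. All CPM values were whole multiples of 1 step in each library (100% within 0.01 step), so whole reads were recovered. Recovered reads were even except values of 1 step (519 and 313 with OICR-9429, 111 and 190 with DMSO, DU145 before PC-3), which were taken as 0. A fragment is 2 reads, and intervals are for counting error alone, since PCR copies cannot be told apart.

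The members and gene lists were chosen with earlier results of these data known. Within a line, log2(CPM + 1) was subtracted, and genes with at least 1 CPM in the higher library were counted at 2-fold, a rule of size with no test. limma 3.58.1 with trend (R 4.3.3) was fitted on genes over 1 CPM in at least 2 of the 4 libraries, with Benjamini-Hochberg adjustment. edgeR 4.0.16 and DESeq2 1.42.0 on recovered fragments, other scalings, a pseudocount of 0.1 CPM, a minimum of 5 CPM and a 1.5-fold limit were alternatives. Symbols and exonic lengths came from GENCODE 29 and RefSeq tables. Members with values in every library were the 10 largest changes in each line, partners of the 6 largest in PC-3 and preset genes of special role. The remaining members are given by changes or ranges. Of each list up to 4 genes with the largest mean change were named, with ATF4, DDIT3, ASNS and a further gene that is not reported here. Where nothing says that samples came from separate cultures, p-values measure only the spread between these libraries. Protein sequences were not used here.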

Additional observations from a re-analysis of the deposited data

Results flagged for a closer look

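In 12 of the 36 synthetase genes the OICR-9429 library lay on opposite sides of its DMSO library in DU145 and PC-3, with both counting intervals off 1. That is 34.3% of the 35 members with at least 1 CPM in the higher library of each line, beside 26.0% of all such genes. The 12 are made up of 9 of 20 cytosolic and 3 of 15 mitochondrial members. Without the condition on the intervals, 37.1% of the 35 members and 46.5% of all such genes were opposite. Genes with more fragments meet that condition more readily, so the 34.3% and 26.0% are not like for like. With 1 library in each group the difference between the lines was not tested. The change in PC-3 minus that in DU145, on the log2 scale, was 2.62 for AARS1, 1.06 for SARS1, 0.74 for QARS1, 0.47 for MARS1, 0.34 for LARS1 and 0.27 for NARS1 among cytosolic genes that were higher in PC-3 and lower in DU145. It was -1.54 for FARSB, -1.15 for HARS1 and -0.76 for RARS1 among cytosolic genes that were lower in PC-3 and higher in DU145. Among mitochondrial genes it was 1.11 for PARS2, -0.99 for CARS2 and -0.96 for YARS2. Under TMM and median-of-ratios scaling SARS1 and NARS1 were no longer opposite, while the other 7 cytosolic and 3 mitochondrial genes were.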

How the results depend on the processing

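Of 280 values of single synthetases within a line under other scalings, pseudocounts and minimums, 228 moved by less than their counting error and 52 moved more. Among the few past the size rule 0 changed sign. Short of that rule, NARS1, SARS1, VARS1 and IARS2 changed sign in DU145 under both other scalings, and LARS2 under median-of-ratios scaling. Counting genes by an interval off 1 gave 9 cytosolic genes higher and 8 lower in DU145, and 14 higher and 6 lower in PC-3. It gave 2 mitochondrial genes higher and 12 lower in DU145, and 1 higher and 13 lower in PC-3. In PC-3 all 20 cytosolic genes thus met this condition, which small changes of well expressed genes meet at this depth. The share of all genes that meet it is not given here. At 1.5-fold the cytosolic counts were 1 lower in DU145 and 8 higher and 4 lower in PC-3, and the mitochondrial counts were 3 lower in DU145 and 6 lower in PC-3. With a pseudocount of 0.1 CPM 1 mitochondrial gene, TARS2, was at least 2-fold lower in DU145. Under TMM and under median-of-ratios scaling 0 mitochondrial genes were at least 2-fold lower in PC-3. The DU145 cytosolic median was 0.19 with TMM and 0.22 with median-of-ratios scaling, and the mitochondrial median -0.22 with median-of-ratios scaling; by construction these scalings shift all genes of a library alike. Across lines, TMM gave 11 genes higher and 101 lower, edgeR 10 higher and 112 lower, DESeq2 59 higher, and limma without the line term 0 in either direction; the cause was not tested. Synthetase genes called stayed at 0 under every setting run. The TARS2 estimate ranged from -0.87 to -0.76 with adjusted p of 0.277 to 1.00, and leaving out a line gave -0.99 to -0.74. No paired analysis was possible because each group had 1 library and the labels carry no replicate numbers, apart from the line term, which compares the libraries within each line and without which limma called 0 genes. Depth gave median counting half-widths of 0.05 for cytosolic and 0.16 to 0.17 for mitochondrial genes on the log2 scale, and SARS2 is too low to place.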
